A study of Homo sapiens with 6 samples.

Results

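The aryl hydrocarbon receptor battery was examined as a set of 10 genes among the 26364 in the deposited count table. It held the receptor AHR, its DNA-binding partner ARNT, the repressor AHRR, and 7 genes commonly described as targets (CYP1A1, CYP1A2, CYP1B1, TIPARP, NQO1, ALDH3A1 and UGT1A6). The members were picked by symbol. CYP1A1 was included because its counts were lower after estradiol, and ALDH3A1 because its counts were lower in knockout cells, so those differences are given as descriptions without a test. Of the 10 genes, UGT1A6 had 0 counts in every library and 9 passed the filter on low counts. CYP1A2 passed only through its counts in the knockout libraries given vehicle, so its differences are given without a test and it is left out of the counts of members tested.

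The cells were of the Ishikawa line, which was established from an endometrial adenocarcinoma and carries the estrogen receptor. The parental line and 2 clones with a knockout of ETV4, a transcription factor of the ETS family, were given either 0.1% DMSO as the vehicle or 10 nM 17β-estradiol (E2), and each line gave 1 poly(A)-selected RNA-seq library per treatment. All 3 lines had been in hormone-depleted medium for 5 days before treatment. The labels disagree on the duration, which is 8 h in the protocol and 1 h in the sample characteristics. The groups were thus ETV4 knockout in DMSO (n = 2 clones), ETV4 knockout in E2 (n = 2 clones), parental in DMSO (1 library) and parental in E2 (1 library). Each knockout line is 1 clone, so a difference between the clones and the parental line cannot be told apart from a difference between lines. Values of the parental line have no replicate check, and p-values measure the spread between these libraries only. No treatment with an AHR ligand is named in the labels.

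As background, AHR is a transcription factor of the bHLH-PAS family that waits in the cytoplasm with HSP90 and its co-chaperones until a ligand such as a dioxin or a tryptophan derivative binds. It then enters the nucleus, pairs with ARNT and binds xenobiotic response elements, short sites with the core GCGTG, in genes for enzymes that oxidise or conjugate foreign compounds and steroids. AHRR and TIPARP close a feedback loop, since both are induced by the receptor and repress it. In endometrial and breast cells, AHR and the estrogen receptor are known to influence each other, and CYP1A1 and CYP1B1 hydroxylate E2 itself.

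The 6 libraries held between 28037392 and 36829479 counts. ETV4 lay between 2.42 and 3.41 CPM (a count scaled by TMM to a common library size) in the 4 clone libraries, against 19.7 in parental cells in DMSO and 28.4 in E2. The estrogen-induced genes PGR and GREB1 were higher in every E2 library than in every DMSO library, so both labels matched their check. Of the 5 epithelial markers, EPCAM, CDH1, KRT8, KRT18 and KRT19, all were abundant, and their summed level was 1958 to 2203 CPM in E2 libraries against 2559 to 2924 CPM in DMSO libraries. In each line 4 of the 5 were lower in E2. CDH1 instead was at 445 CPM in DMSO and 494 in E2 in parental cells, 309 and 364 in clone 1, and 491 and 470 in clone 2. The blood markers CD3E and HBB had 0 counts everywhere, and the fibroblast markers DCN, LUM and PDGFRB had at most 3 counts in a library. The summed level was 46.2 to 85.1 CPM for 5 fibroblast markers, nearly all of it COL1A1, 2.29 to 4.68 CPM for 4 blood markers, 1.61 to 3.96 CPM for 3 endothelial markers, and 528 to 762 CPM for 3 endometrial markers. Whether the lower summed epithelial level in E2 has a part in the E2 differences below was not tested. In such bulk samples, fewer expressing cells and less RNA per cell cannot be told apart.

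The sequences upstream of 4 members are shown: the neighbours CYP1A1 and CYP1A2, NQO1, and the feedback gene TIPARP. The E2 difference of CYP1A1 is a description, and nothing is read from that of CYP1A2. Those of NQO1 and TIPARP over all lines did not pass in the reported fit. Each is the 250 bases before the RefSeq transcript start, read on the gene's own strand in GRCh38.p14, and capitals mark the xenobiotic response element core GCGTG on either strand (CACGC where it lies on the opposite strand). The CYP1A1 sequence is chr15:74725529-74725778 on the minus strand, and the CYP1A2 sequence is chr15:74748595-74748844 on the plus strand. The NQO1 sequence is chr16:69726561-69726810 on the minus strand, and the TIPARP sequence, before the first of its 3 listed starts, is chr3:156674340-156674589 on the plus strand.
CYP1A1: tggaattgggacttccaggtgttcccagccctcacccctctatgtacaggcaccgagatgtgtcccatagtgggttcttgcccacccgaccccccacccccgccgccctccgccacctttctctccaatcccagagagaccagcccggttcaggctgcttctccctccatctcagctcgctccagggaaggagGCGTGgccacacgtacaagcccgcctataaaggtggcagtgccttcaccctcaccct
CYP1A2: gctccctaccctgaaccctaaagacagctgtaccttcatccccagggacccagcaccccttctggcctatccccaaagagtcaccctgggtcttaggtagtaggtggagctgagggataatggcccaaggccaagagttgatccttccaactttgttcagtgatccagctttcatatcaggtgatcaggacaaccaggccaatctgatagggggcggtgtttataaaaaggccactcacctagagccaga
NQO1: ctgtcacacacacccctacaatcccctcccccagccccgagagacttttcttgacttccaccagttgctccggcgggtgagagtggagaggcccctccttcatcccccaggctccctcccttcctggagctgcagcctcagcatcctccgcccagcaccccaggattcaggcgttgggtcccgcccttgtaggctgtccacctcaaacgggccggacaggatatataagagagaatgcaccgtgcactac
TIPARP: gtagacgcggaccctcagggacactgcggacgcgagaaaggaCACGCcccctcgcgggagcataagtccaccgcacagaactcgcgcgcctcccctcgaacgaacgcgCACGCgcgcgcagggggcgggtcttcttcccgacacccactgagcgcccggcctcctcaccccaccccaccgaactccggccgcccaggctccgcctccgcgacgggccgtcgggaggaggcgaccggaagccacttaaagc

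The CYP1A1 window held 1 copy of GCGTG, 53 bases upstream of the start. The TIPARP window held 2 copies on the opposite strand, 138 and 204 bases upstream, and 1 copy of the ETS core CGGAAG 12 bases upstream. The CYP1A2 and NQO1 windows held neither of these motifs. None of the 4 windows shown held GGTCA, the half-site of the estrogen response element. Windows not shown, of ARNT, AHRR, UGT1A6 and another start of TIPARP, did hold it. GCGTG also lay in windows of AHRR and UGT1A6 that are not shown, and not in those of AHR and ARNT. No window was available for ALDH3A1 or CYP1B1. Among 35116 RefSeq windows of the same length, 32.2% held GCGTG, 32.6% held GGTCA and 16.5% held CGGAAG on either strand. Each motif was counted on its own, so an overlap with another motif did not matter. A match of these letters is a description of the window, and enhancers farther from the start, such as those known for CYP1A1, lie outside it.

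The members differed widely in level. On a scale of CPM per kilobase of exon, NQO1 was the most abundant, with a mean of 94.5 over the 6 libraries (range 64.9 to 169). NQO1 encodes a quinone reductase that also answers to NRF2, the regulator of the antioxidant response. ALDH3A1 was at 44.6 and 40.4 in parental cells, above ARNT in both, and at 1.41 to 3.21 in the clones, below ARNT in all 4 libraries. ARNT averaged 15.4 (range 14.3 to 18.1), TIPARP 5.20 (3.89 to 6.15), AHR 4.18 (3.49 to 4.85) and CYP1B1 3.14 (2.70 to 3.91) on the same scale. CYP1A1 averaged 1.19 (0.299 to 2.30), AHRR 0.303 (0.192 to 0.462) and CYP1A2 0.0868 (0.0196 to 0.175). Per kilobase, AHR and TIPARP were each above CYP1B1 in 6 of 6 libraries, and CYP1B1 was above CYP1A1 in 6 of 6. TIPARP was above AHR in 5 of 6, so the order of these 2 was not resolved. UGT1A6, a conjugating enzyme of the UGT1A cluster, had 0 counts. For counting error alone this allows at most 0.0802 to 0.103 CPM, depending on the library's depth. The 8 other UGT1A genes of the list had at most 1 count each. Reads of the last exons, which these genes share, may have been missed in counting, so these values do not bound the level of UGT1A6.

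**Figure D1:**
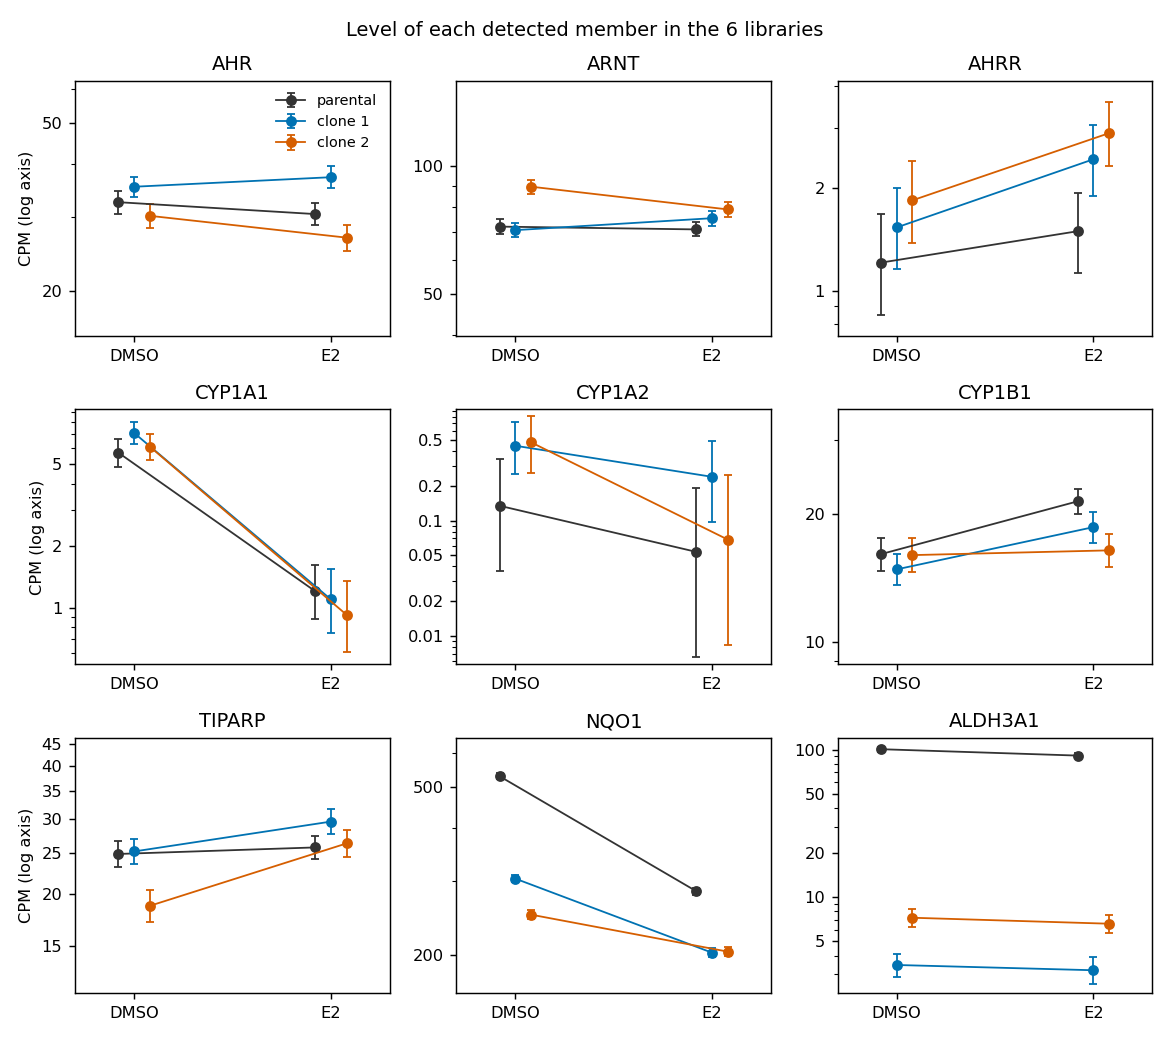
Level of each of the 9 detected members in CPM (log axis) by treatment, with the points of a line joined and bars giving 95% Poisson intervals for counting error only. CYP1A1 drops in all 3 lines from DMSO to E2, ALDH3A1 separates the parental line from both clones, and AHR and ARNT stay within a narrow band.

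The receptor and its partner were present in every library. AHR was at 32.4 CPM in parental cells in DMSO and 30.4 in E2, at 35.3 and 37.2 in clone 1, and at 30.1 and 26.8 in clone 2. Both clone 2 libraries were below both clone 1 libraries, with the parental ones between. ARNT, which also pairs with hypoxia-inducible factors, was at 72.04 and 70.9 CPM in parental cells, 70.7 and 75.4 in clone 1, and 89.5 and 79.1 in clone 2. The highest library was 1.39 times the lowest for AHR and 1.27 times for ARNT, the narrowest spreads among the detected members.

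CYP1A1, the monooxygenase used as the standard readout of AHR activity, had the largest E2 difference of the 9 detected members, which is the difference it was chosen for. It was at 5.68 CPM (169 counts) in parental cells in DMSO and 1.20 CPM (45 counts) in E2. Clone 1 had 7.09 CPM (254 counts) and 1.10 CPM (32 counts), and clone 2 had 6.08 CPM (178 counts) and 0.922 CPM (27 counts). The 3 E2 libraries were all below the 3 DMSO libraries, in whichever line, which held for 10.7% of all genes kept. In E2 the level was 4.72-fold lower in the parental line, 6.46-fold lower in clone 1 and 6.59-fold lower in clone 2, and 0.378% of the genes were at least 2-fold lower in each line. No member was at least 2-fold higher in each line, as 1.52% of genes were. The fitted log2 difference was -2.54 (SE 0.23) over all lines and -2.71 (SE 0.29) in the clones. The clones averaged 6.58 ± 0.715 CPM (SD, n = 2) in DMSO and 1.01 ± 0.123 CPM (SD, n = 2) in E2.

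The other members of the CYP1 family, CYP1A2 and CYP1B1, differed from CYP1A1 in level, and CYP1B1 also in the direction of its E2 values. CYP1A2, a close relative of CYP1A1 and its neighbour on chromosome 15, had 4 and 2 counts in parental cells, 16 and 7 in clone 1, and 14 and 2 in clone 2, in DMSO and E2 respectively. Each E2 library had fewer counts than the DMSO library of its line, but most counts were too low to measure a ratio. Since the DMSO libraries of the clones let it through the filter, nothing is read from these differences. CYP1B1, an enzyme that turns E2 into catechol estrogens, stood at 16.1 CPM in parental cells in DMSO and 21.5 in E2, 14.8 and 18.6 in clone 1, and 16.0 and 16.4 in clone 2. All 3 E2 libraries were above all 3 DMSO libraries, as were those of 13.5% of genes kept, by a small margin in clone 2. The log2 difference for CYP1B1 was 0.26 (SE 0.14), and edgeR's quasi-likelihood test gave an adjusted p of 0.319 (Benjamini-Hochberg over all genes kept). CYP1A1, chosen for its fall, and CYP1B1 thus lay on opposite sides of 0 in all 3 lines, but for CYP1B1 in clone 2 the side was not resolved. There its log2 ratio was 0.037, with a 95% counting interval from -0.15 to 0.22.

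The feedback genes TIPARP and AHRR gave small positive E2 differences that did not pass the test. TIPARP, a mono-ADP-ribosyltransferase that acts on AHR, was at 24.8 and 25.7 CPM in parental cells, 25.1 and 29.6 in clone 1, and 18.7 and 26.3 in clone 2. Its E2 libraries were also all above its DMSO libraries, as were those of 13.5% of genes kept. The margin was small, with parental cells in E2 at 25.7 CPM and clone 1 in DMSO at 25.1. The log2 difference for TIPARP was 0.25 (SE 0.16), adjusted p = 0.399 by edgeR. AHRR, which competes with AHR for ARNT, was at 1.21 and 1.496 CPM (36 and 56 counts) in parental cells, 1.54 and 2.43 (55 and 71 counts) in clone 1, and 1.84 and 2.90 (54 and 85 counts) in clone 2. The E2 value was higher in each line, though groups overlapped across lines, and the log2 difference was 0.55 (SE 0.25), adjusted p = 0.266 by edgeR.

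NQO1 was at 529 CPM in parental cells in DMSO and 283 in E2, at 303 and 203 in clone 1, and at 249 and 204 in clone 2. The parental DMSO library stood far above the other 5, and the E2 values of the clones nearly coincided, at 203 ± 0.834 CPM (SD, n = 2). In E2 the level was 1.87-fold lower in the parental line, 1.496-fold lower in clone 1 and 1.22-fold lower in clone 2. The log2 E2 difference was -0.60 (SE 0.16) and did not pass by edgeR (adjusted p = 0.138). DESeq2's Wald test called it at an adjusted p of 0.0130, among 1115 genes against 176 by edgeR. Without the clone 2 DMSO library edgeR called it at 0.0309 among 1704 genes, and without clone 2 at 0.00554 among 3353 genes. ALDH3A1, an aldehyde dehydrogenase, was nearly level with treatment, at 100.7 and 91.1 CPM in parental cells, 3.46 and 3.19 in clone 1, and 7.24 and 6.59 in clone 2. Its log2 E2 difference was -0.13 (SE 0.33), adjusted p = 0.836 by edgeR.

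**Figure D2:**
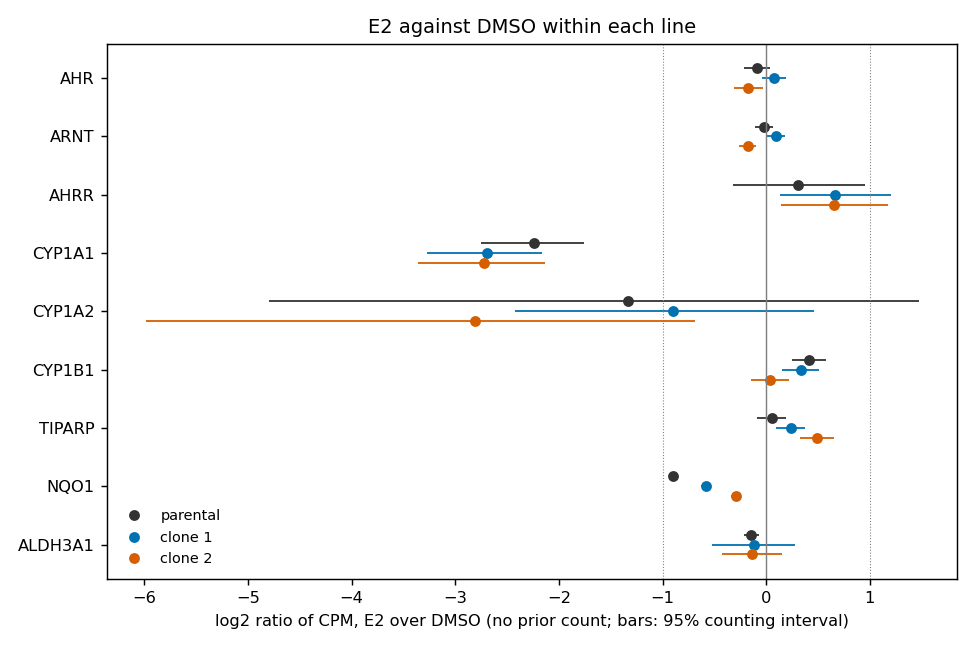
Log2 ratio of E2 to DMSO within each line for the 9 detected members, with 95% intervals that cover counting error only and dotted lines at 2-fold. CYP1A1 lies beyond 2-fold below 0 in all 3 lines, NQO1 lies below 0 by less than 2-fold in each, and the intervals of CYP1A2 are wide.

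By direction alone, NQO1 and ALDH3A1 were lower with E2 in each line, as were 25.2% of all genes kept. CYP1A1 and CYP1A2 were too, but the former was chosen for this and the latter was kept through its DMSO libraries. Another 3 were higher in each line (AHRR, CYP1B1 and TIPARP), as were 27.8% of genes kept. AHR and ARNT differed in sign between lines. At a threshold of 1.5-fold, 1.85% of genes kept were lower in each line, with CYP1A1 and CYP1A2 among them for the reasons just given, and no member was among the 4.36% that were higher. None of the 7 members tested passed for E2 by edgeR, where 1.13% of all 15611 genes did. Of these 7, 1 (NQO1) had an unadjusted p below 0.05, against 20.4% of all genes. DESeq2 called 1 (NQO1) among 1115 genes, and limma-voom called 0 members among 174 genes. With the libraries paired by line, 2.46% of all genes passed and again 0 of the 7 members. Small E2 values of the parental line depend on the scaling. With total-count scaling, the median of all genes in that line shifted by 0.17 on the log2 scale, and the AHR value moved from -0.09 to 0.08 and that of ALDH3A1 from -0.14 to 0.03.

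Within the clones alone, 0 of 7 members tested passed by edgeR without pairing, where 0.329% of 14881 genes did. In that fit 1 member (NQO1) had an unadjusted p below 0.05, as did 8.7% of all genes, and both DESeq2 (310 genes called) and limma-voom (38 genes called) called 0 members. When the libraries of a clone were paired, 15.0% of genes passed, and with them NQO1 at -0.44 (SE 0.15) with an adjusted p of 0.0264 and TIPARP at 0.35 (SE 0.13) with an adjusted p of 0.0439, both by edgeR. The paired fit has 1 residual degree of freedom, so its p-values rest on a spread shared over all genes.

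Against the parental line, ALDH3A1 was the member that differed most, again the difference it was chosen for. In DMSO it was 29.1-fold lower in clone 1 and 13.9-fold lower in clone 2 than in parental cells. In E2 it was 28.6-fold lower in clone 1 and 13.8-fold lower in clone 2. The counts behind these values were 2996 and 3411 in parental cells, 124 and 93 in clone 1, and 212 and 193 in clone 2. The clones averaged 5.35 ± 2.67 CPM (SD, n = 2) in DMSO and 4.89 ± 2.41 CPM (SD, n = 2) in E2. The fitted log2 difference was -4.23 (SE 0.34), and it ran from -4.85 without clone 2 to -3.81 without clone 1. All 4 clone libraries were below both parental libraries, as in 7.82% of genes kept, while at least 2-fold lower values in both clones were found in 1.13% of genes in DMSO and 0.935% in E2.

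The remaining members were close to the parental level or not resolved from it. None of the 7 tested passed for the knockout effect by edgeR, where 0.327% of all genes did. An unadjusted p below 0.05 was found for 2 of them (AHRR and NQO1), against 11.4% of all genes. DESeq2 called 1 (NQO1) among 454 genes, and limma-voom called 0 members among 57 genes. With line as a random block, 0.295% of all genes and 0 members passed. The log2 knockout difference was 0.04 (SE 0.17) for AHR, 0.14 (SE 0.14) for ARNT, -0.18 (SE 0.14) for CYP1B1 and -0.03 (SE 0.17) for TIPARP, with adjusted p-values from 0.594 to 0.944 by edgeR. With total-count scaling the median of all genes in DMSO shifted by 0.16 in clone 1 and 0.22 in clone 2, and the sign for TIPARP turned (0.067). That of CYP1A1 was 0.00 (SE 0.29), adjusted p = 0.998, with a DMSO level of 6.58 ± 0.715 CPM (SD, n = 2) in the clones against 5.68 CPM in parental cells.

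NQO1 was lower in the clones than in parental cells of the same treatment. In DMSO it was 1.74-fold lower in clone 1 and 2.12-fold lower in clone 2, and in E2 it was 1.40-fold lower in clone 1 and 1.39-fold lower in clone 2. The groups overlapped, because clone 1 in DMSO at 303 CPM exceeded parental cells in E2 at 283 CPM. The log2 difference was -0.71 (SE 0.16) and did not pass by edgeR (adjusted p = 0.187). DESeq2 called it at an adjusted p of 0.00557, among 454 genes against 51 by edgeR, and edgeR called it without clone 2 at 0.0433, among 996 genes.

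AHRR lay in the opposite direction. Its 4 clone libraries, at 1.54 to 2.90 CPM, were all above both parental libraries, at 1.21 and 1.496 CPM, an order shared by 8.53% of genes kept. The log2 difference was 0.66 (SE 0.27), adjusted p = 0.427 by edgeR. Both clones exceeded the parental level in DMSO by 2-fold or more for 4.14% of genes. CYP1A2 was the member among them, with 16 and 14 counts against 4, and nothing is read from it because those counts let it through the filter. In E2 no member was at least 2-fold higher in both clones, as 1.34% of genes were. At 1.5-fold in E2, AHRR was higher in both clones (3.89% of genes) and ALDH3A1 lower (2.75%).

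**Figure D3:**
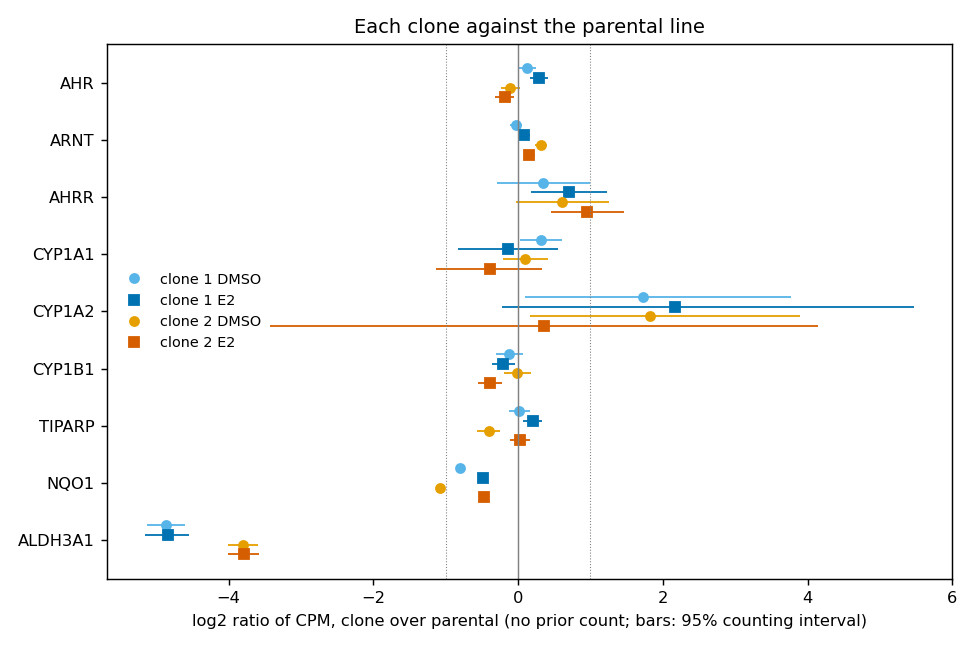
Log2 ratio of each clone to the parental library of the same treatment for the 9 detected members, with 95% intervals that cover counting error only and dotted lines at 2-fold. ALDH3A1 stands alone near -4 to -5, at like values in DMSO and E2, while NQO1 lies nearer 0 in E2 than in DMSO.

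Whether E2 acted differently in the clones and in the parental line was tested as an interaction. By edgeR 0 of 8 members passed, as did 0% of all genes, and no member had an unadjusted p below 0.05, against 7.62% of all genes. DESeq2 and limma-voom also called 0 members, and so did the paired fit, in which 15.8% of all genes passed. The interaction was -0.46 (SE 0.48) on the log2 scale for CYP1A1, with an adjusted p of 0.762 by edgeR. For NQO1 it was 0.46 (SE 0.29), adjusted p = 0.637, and for ALDH3A1 it was 0.02 (SE 0.71), adjusted p = 0.994. With 1 parental library per treatment, the standard errors leave room for sizeable differences between genotypes.

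The clones were also compared with each other. Between clone 2 and clone 1, 2 of 8 members passed by edgeR, where 18.3% of 14881 genes did. With so few members, nothing is read from this count. This fit has 1 residual degree of freedom, and the DMSO and E2 libraries of a clone serve as its replicates. Its p-values thus rest on a spread shared over all genes. ALDH3A1 was higher in clone 2 by 1.06 (SE 0.20) on the log2 scale, with an adjusted p of 2.40e-06, and both of its clone 2 libraries were above both clone 1 libraries, as in 22.3% of genes. This call was lost without the treatment term (adjusted p = 0.174). AHR was lower in clone 2 (log2 difference -0.34, SE 0.13), in both libraries of each clone as in 24.2% of genes, with an adjusted p of 0.0445 by edgeR. That call was lost with total-count scaling (adjusted p = 0.0747), with no filter on low counts (0.0599), by DESeq2 (0.248), by limma-voom (0.0747), without the treatment term (0.420) and with the GC trend removed (0.187). ARNT lay the other way, at 0.21 (SE 0.13), adjusted p = 0.263 by edgeR.

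The wider pathway was read from 6 lists of other genes, which were chosen with earlier results of these data known. To set beside each list, 0.327% of all genes passed for the knockout effect by edgeR and 1.13% for E2. In the receptor complex (HSP90AA1, HSP90AB1, PTGES3, ARNT2, XPO1 and SRC), 0 of 6 genes passed for the knockout effect or for E2 by edgeR, with 1 and 0 at an unadjusted p below 0.05, against 11.4% and 20.4% of all genes. The median log2 difference of the complex was -0.13 for the knockout effect, against 0.01 over all genes, and 0.03 for E2, against -0.02 over all genes. Of the other bHLH-PAS genes that can pair with ARNT, such as HIF1A and EPAS1, 0 of 7 passed in either comparison, with 3 at an unadjusted p below 0.05 for the knockout effect (11.4% of all genes) and 0 for E2 (20.4%), and with medians of 0.40 and -0.02. Among 12 other genes described as AHR-induced, 8 could be tested, and 2 passed for E2 in opposite directions. SLC7A5, an amino acid transporter, rose from 402 to 1851 CPM in parental cells, from 552 to 1550 in clone 1 and from 559 to 1664 in clone 2, a log2 difference of 1.76 (SE 0.18) with an adjusted p of 0.0108. HES1, a repressor downstream of Notch, fell from 161 to 69.4 CPM in parental cells, from 126 to 77.8 in clone 1 and from 141 to 60.6 in clone 2, a log2 difference of -1.04 (SE 0.15) with an adjusted p of 0.0295. In the clones alone SLC7A5 passed at 1.52 (SE 0.16, adjusted p = 0.0342), while HES1 was at -0.96 (SE 0.17) with an adjusted p of 0.145 unpaired and 1.15e-10 paired. There 0.329% of all genes passed unpaired and 15.0% paired. For E2 over all lines, 4 of the 8 genes had an unadjusted p below 0.05 by edgeR (20.4% of all genes), and their median difference was 0.03. For the knockout effect 0 of the 8 passed by edgeR, 3 had an unadjusted p below 0.05 (11.4% of all genes), and the median was 0.01.

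NQO1 is shared with the NRF2 response, so 18 other NRF2 genes were read beside it. Of the 17 tested, 0 passed for the knockout effect by edgeR and 3 had an unadjusted p below 0.05, against 11.4% of all genes. Their log2 differences were negative in 16 of 17 genes (94.1%, against 48.3% of all genes), with a median of -0.29 against 0.01 over all genes. The same share was found between the clones, so it was not seen in the knockout comparison alone. What lies behind either share was not tested. For clone 2 against clone 1, 16 of 17 were negative (94.1%, against 49.2% of all genes), with a median of -0.13 against 0.01. For E2, 0 of 17 passed unpaired, with 4 at an unadjusted p below 0.05 (20.4% of all genes) and a median of 0.00. When libraries were paired by line, where 2.46% of all genes passed, AKR1C2 passed at -1.13 (SE 0.16, adjusted p = 0.0275 by edgeR). AKR1C2, a steroid-reducing enzyme, was at 15.4 and 6.25 CPM in parental cells, and its reads can be confused with those of its close paralog AKR1C1. Of 17 other aldehyde dehydrogenases, 0 passed for the knockout effect, with 7 at an unadjusted p below 0.05 (11.4% of all genes), and 0 passed for E2, with 2 at such a p (20.4% of all genes). Their median log2 knockout difference was -0.08. The closest relative in the list, ALDH3A2, was at 281 to 300 CPM in the clones against 323 and 364 CPM in parental cells.

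**Figure D4:**
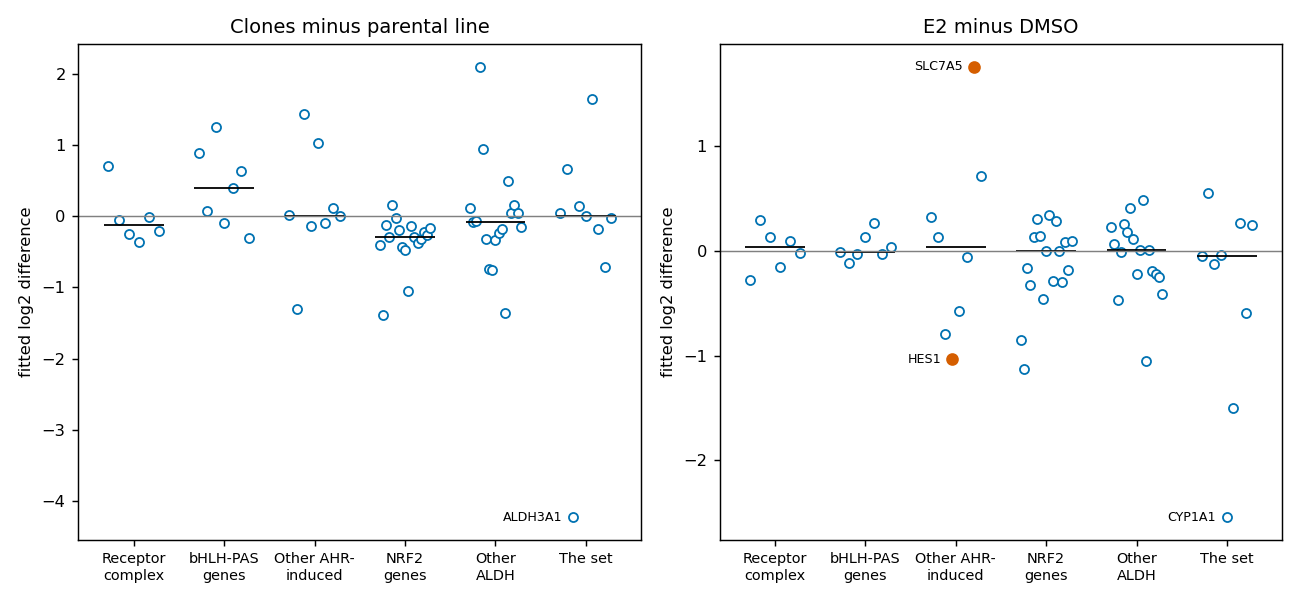
Fitted log2 difference of each tested gene by list, for the knockout effect (left) and for E2 (right), where filled orange points have an adjusted p below 0.05 by edgeR, open points do not, and black lines are medians. ALDH3A1 on the left and CYP1A1 on the right are labelled and carry no test there, and CYP1A2 carries none on either side. The median line of the set includes these genes, so nothing is read from it. The filled points are SLC7A5 and HES1 on the E2 side.

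The genes whose pattern over the 6 libraries was most like that of a member were picked by Pearson correlation of log2 CPM, with genes of a comparable range only. For CYP1A1 the closest of 1331 such genes were SCEL (r = 0.983), PVRL4 (0.975), CLDN9 (0.971), GUCY1A3 (0.971) and TOX (0.969). SCEL was at 4.24 and 1.63 CPM in parental cells, 4.19 and 1.17 in clone 1, and 3.52 and 1.16 in clone 2. For ALDH3A1 the closest of 294 genes were GJA1 (r = 0.998), FAM208A (0.978), COL3A1 (0.973), TNNT1 (0.970) and EPHA5 (0.967). GJA1, which encodes the gap junction protein connexin 43, was at 886 and 691 CPM in parental cells, 19.6 and 18.4 in clone 1, and 54.3 and 49.98 in clone 2. It therefore shared with ALDH3A1 both the gap to the parental line and the order of the clones. These 6 points share lines and treatments, so the correlations describe the libraries and carry no p. COL3A1 is also 1 of the 5 fibroblast markers, at 7.93 and 9.73 CPM in parental cells and 1.34 to 3.35 CPM in the clones, and its part in the ALDH3A1 difference was not tested.

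Several members overlap other genes, and the use of strand in counting is not given in the sources used here. AHRR shares sequence with the readthrough gene PDCD6-AHRR, TIPARP overlaps TIPARP-AS1, NQO1 overlaps NQO1-AS1, and the UGT1A genes share their last exons. Values of these members may therefore hold or miss reads of an overlapping transcript.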

How the data were processed

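The authors deposited a read count for each gene symbol in each library, and beside it a table of normalized signal. Scaled to the raw total of each library, all values of the latter (100%) gave whole reads within 1e-04 of a read and equalled the raw counts. The same fit on those reads therefore had to call the same 51 genes for the knockout effect. Per the submitters' processing notes, HISAT2, SAMtools, Subread, DESeq2 and the build hg19 were used. Their roles, the annotation and the use of strand are not given in the sources used here.

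The tests used edgeR 4.0.16 in R 4.3.3 (TMM scaling, filterByExpr on the 4 groups, quasi-likelihood test), and p-values were adjusted by Benjamini-Hochberg over all genes kept (15611, or 14881 for the clones alone) at a threshold of 0.05. The script was tested on simulated data. The knockout effect was fitted with treatment, the E2 effect with genotype, the interaction on all 6 libraries, and the clone difference on the 4 clone libraries with treatment. Standard errors are the absolute coefficient divided by the root of F. Log2 ratios between single libraries and counts of genes past a fold used a prior count of 2, and the plotted ratios and the fold values of members used none. Intervals are exact, at 95%, and cover counting error only. A count of 0 allows up to 3 counts. Exon lengths came from GENCODE basic gene models, which may differ from the authors' annotation, and promoters from RefSeq (GRCh38.p14) by symbol, with no coordinates taken from the hg19 counts.

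Members and lists were chosen with earlier results of these data known. All members are described. A result for 1 gene of a list is not reported here. A gene of a list was named where its adjusted p was below 0.05 and its mean at least 2 CPM, at most 4 per list, and ALDH3A2, AKR1C1 and the markers were named besides. Clone numbers in the labels join the DMSO and E2 library of a line. The difference between the clones correlated between treatments at r = 0.626 across genes. The replicate block was line, fixed for E2 and the interaction, and random in limma 3.58.1 for the knockout effect (consensus correlation 0.113). Alternatives were other scalings and filters, DESeq2 1.42.0, limma-voom, the replicate block, libraries and lines left out, other prior counts and a 1.5-fold threshold. A GC correction was added after seeing the data. It covered 93.6% of genes kept and all 10 members.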

Additional observations from a re-analysis of the deposited data

How the results depend on the processing

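Of the alternatives for the members' fits (those of CYP1A2 included), 518 kept the direction and the side of the threshold, 9 passed where the reported fit did not, 7 lost the call, and 39 changed sign without passing in either fit. The 9 and the 7 are given in the report, except that TIPARP at 0.36 and NQO1 at -0.43 also passed in the clones with the replicate block and the GC trend removed together. All sign changes were of small reported values (at most 0.29 on the log2 scale), and their causes were not tested. With total-count scaling, TIPARP was at 0.067 for the knockout effect, ARNT at 0.00892 for E2, CYP1B1 at 0.00582 between the clones, and AHR at -0.13 and ALDH3A1 at -0.17 for the interaction. With the GC trend removed, CYP1A1 was at -0.032 for the knockout effect, AHR at 0.032 for E2 (0.024 with the replicate block) and -0.21 for the interaction (-0.22 with the block), and CYP1B1 at 0.032 between the clones. Median-ratio scaling gave -0.00509 for the CYP1A1 knockout effect, and a minimum of 10 counts in every library gave -0.011 for the ALDH3A1 interaction.

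Leaving out a library or line gave signs of both kinds. For the knockout effect AHR ran from -0.16 to 0.20, CYP1A1 from -0.26 to 0.21 and TIPARP from -0.20 to 0.11. For E2, AHR ran from -0.20 to 0.067, ARNT from -0.14 to 0.063 and ALDH3A1 from -0.44 to 0.16, and in the clones these ran from -0.31 to 0.18, -0.23 to 0.13 and -0.75 to 0.50. For the interaction AHR ran from -0.20 to 0.27, ARNT from -0.21 to 0.15, CYP1A2 from -1.42 to 0.34 and ALDH3A1 from -0.60 to 0.64. The ALDH3A1 knockout difference ran from -4.85 to -3.81.

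Counts of all genes called moved more. DESeq2 called 454 genes for the knockout effect (51 reported), 1115 for E2 (176), 310 for E2 in the clones (49), 29 for the interaction (0) and 1024 between the clones (2723), and leaving out treatment gave 104 between the clones. With the replicate block (libraries paired by line), the counts were 46 for the knockout effect, 384 for E2, 2227 for E2 in the clones and 2470 for the interaction, and with the GC trend removed as well the last 3 were 617, 2398 and 1851. The paired fit changed no member's call beyond NQO1 and TIPARP in the clones. Leaving out a library or line gave 1 to 996 genes for the knockout effect, 40 to 3353 for E2, 0 to 352 for E2 in the clones and 0 to 38 for the interaction, and the 996 and the 3353 came without clone 2. At 1.5-fold in place of 2-fold, CYP1A1 and CYP1A2 were lower with E2 in each line, as were 1.85% of genes kept. The former was chosen for this difference, and the latter was kept through its clone DMSO libraries. In E2, AHRR was higher in both clones than in parental cells (3.89% of genes) and ALDH3A1 was lower (2.75%), the difference it was chosen for. Leaving out a library between the clones, a parental library or a line in the interaction, or the parental line in the knockout effect left no fit. A lone sample was assumed to vary like the other groups. Depth limits CYP1A2 and AHRR, and the number of lines limits every member.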

Other observations

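Other genes of the lists differed between the clones or passed only when libraries were paired by line. Among NRF2 genes above the minimum level for naming, AKR1C2 was lower in clone 2 than in clone 1 (log2 difference -0.97, adjusted p = 0.000132 in edgeR's quasi-likelihood test), as was ME1, the NADP-dependent malic enzyme (-0.70, adjusted p = 3.42e-06). Among aldehyde dehydrogenases, ALDH16A1 was higher in clone 2 (0.68, adjusted p = 5.46e-06 by edgeR), whereas ALDH5A1 (-0.59, adjusted p = 9.81e-05) and ALDH1L2 (-0.55, adjusted p = 0.000464) were lower. Of the AHR-induced genes, CYP2S1, a cytochrome P450, was higher in clone 2 (0.78, adjusted p = 0.0401 by edgeR), and NEDD9, a scaffold protein of focal adhesions, was lower (-0.88, adjusted p = 2.23e-09). Over all genes, 18.3% passed in this comparison. Its fit has 1 residual degree of freedom, so these p-values rest on a spread shared over all genes.

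In the paired E2 fit of the clones, where 15.0% of all genes passed, 5 of the 8 AHR-induced genes tested passed, 2 higher and 3 lower. Beside SLC7A5 and HES1, STC2, a secreted glycoprotein named after its value was seen, rose by 0.47 (adjusted p = 0.00497 by edgeR). NEDD9 fell with E2 by 0.72 on the log2 scale (adjusted p = 1.97e-06 by edgeR) and GSTA1, a glutathione transferase, fell by 0.57 (adjusted p = 0.0455). ARNT2, the close relative of ARNT, fell by 0.39 (adjusted p = 0.0207 by edgeR) from a level of 34.8 to 47.0 CPM in DMSO to 30.9 to 31.1 CPM in E2. AKR1C2 fell by 1.03 (adjusted p = 5.12e-05 by edgeR), and its paralog AKR1C1 fell by 0.82 (adjusted p = 0.00623). None of these genes other than SLC7A5 passed in the unpaired fit of the clones.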
